A study of Mus musculus with 12 samples.

Results

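The 34 genes described here are antiviral effectors of the interferon response, chosen by symbol for what their products do. The choice was made with earlier results of these data known. Their shares set beside those of all genes are therefore a description and not an independent test. All 34 were present among the 24421 symbols of the count table. All 34 passed the filter on low counts, which left 11468 genes for testing. They were followed through bone marrow-derived macrophages (BMDMs) from wild-type C57BL/6 mice, differentiated with 100 ng/mL of M-CSF over 5 days, with fresh medium on day 3. The 4 groups were DMSO Ova (solvent and ovalbumin), iBET Ova (5.0 µM I-BET151 and ovalbumin), DMSO IC (solvent and IgG immune complexes of ovalbumin) and iBET IC (5.0 µM I-BET151 and immune complexes), each kept for 4 hours. I-BET151 is a small molecule that blocks the bromodomains of the BET proteins, which read acetylated histones, and the immune complexes were endotoxin-free ovalbumin bound by polyclonal rabbit anti-ovalbumin IgG, a ligand of Fcγ receptors. All groups therefore shared M-CSF and ovalbumin, and DMSO Ova was the baseline for both the drug and the immune complex. Every group held 1 library from each of 3 animals, mice A, B and C. The study used mice of both sexes, the sex and age of each animal were not given in the sources used here, and the cells were cultured macrophages, not macrophages taken from a tissue. The labels describe drug and stimulus as added together and the text of the study has the drug added earlier, so their order is uncertain.

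Type I interferons act through a receptor made of Ifnar1 and Ifnar2, which activates the kinases Jak1 and Tyk2. These phosphorylate transcription factors such as Stat2, which binds Irf9 in the complex ISGF3, and ISGF3 binds a short repeated element, the interferon-stimulated response element (ISRE), in the promoters of interferon-stimulated genes. Macrophages keep many of these genes at a measurable level without infection. Their products block viruses at different steps: Ifit proteins bind viral RNA and hinder its translation, OAS enzymes make the second messenger that activates RNase L, sensors such as RIG-I and MDA5 detect viral RNA, and tetherin holds budding particles at the cell surface.

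The libraries held 7549849 to 17387639 counts. In mouse A with DMSO and ovalbumin, 77.4% of counts came from the ribosomal RNA gene Rn45s, against 1.41 to 7.83% in the other 11 libraries, and 1768133 counts of that library lay outside it. The lowest count of any member was 9, for Isg20 in that library. Levels are given in CPM, the counts for each 1000000 counts of a library, after scaling with edgeR's TMM factors. The 8 macrophage marker genes summed to 6668 to 7790 CPM in DMSO Ova and 7756 to 9176 CPM in iBET Ova, and to 6354 to 7277 CPM in DMSO IC and 8183 to 8989 CPM in iBET IC, without overlap in the latter arm. The lymphocyte markers reached at most 0.613 CPM, and the stromal and erythroid markers at most 1.03 CPM. The neutrophil markers summed to 9.76 to 56.3 CPM. The dendritic cell list was lower with iBET (32.2 to 43.5 CPM) than with DMSO (60.8 to 90.2 CPM). Almost all of it was Tcf4, which other cells also express. Zbtb46 reached at most 1.21 CPM, while Flt3, Ccr7, Siglech and Xcr1 stayed at or below 0.42 CPM. The part of these markers in the results below was not tested. In bulk libraries, fewer cells of a type and less RNA per cell cannot be told apart.

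Adjusted for exon length, the members differed widely in their mean level over the 12 libraries. Bst2, which encodes tetherin, had the highest level, at 131 CPM per kb. It was followed by Ifi204, a PYHIN family protein that binds DNA, at 106 CPM per kb, and by Oas1a, a 2′-5′ oligoadenylate synthetase, at 76.2 CPM per kb. The lowest were Ifi44, a cytoplasmic interferon-induced protein, at 2.98 CPM per kb and the dynamin-like GTPase gene Mx2 at 1.65 CPM per kb. Isg15, the ubiquitin-like modifier, lay in the middle of the range, at 9.90 CPM per kb. The summed level of all 34 members was 2551 to 2783 CPM in the DMSO Ova libraries and 1887 to 2167 CPM in the iBET Ova libraries. It was 2451 to 3411 CPM in the DMSO IC libraries and 1665 to 2185 CPM in the iBET IC libraries, so each drug group lay below its DMSO group without overlap.

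**Figure D1:**
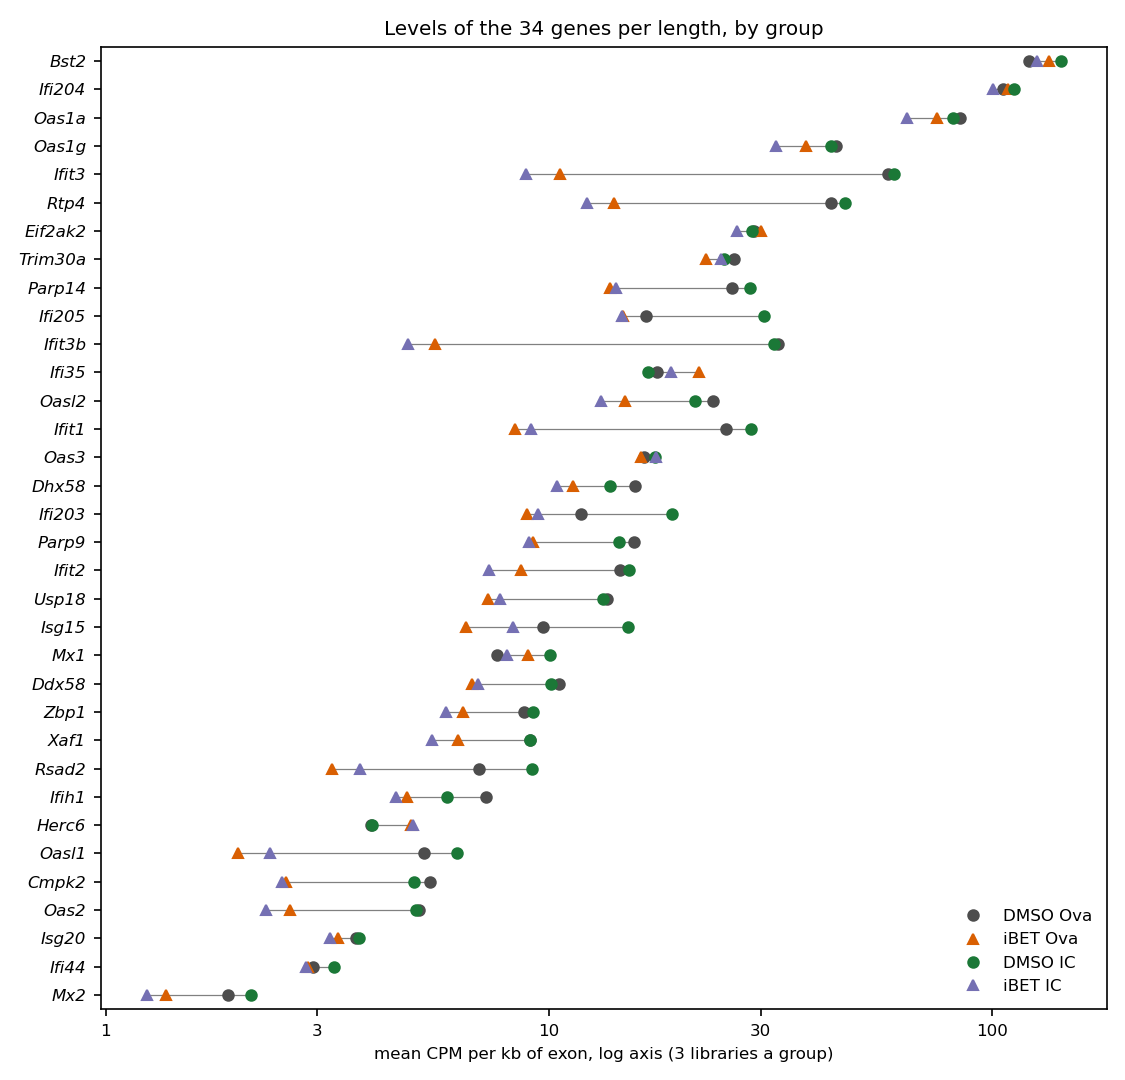
Mean level of each of the 34 members in the 4 groups, in CPM per kb of exon on a log axis (n = 3 libraries a group). Bst2, Ifi204 and Oas1a stand at the top and Ifi44 and Mx2 at the bottom, and the iBET points of the Ifit genes, Oasl1 and Rtp4 lie left of their DMSO points.

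The comparison of I-BET151 with DMSO asks what BET inhibition did to these genes, at rest and during Fcγ receptor engagement. It was tested in edgeR's quasi-likelihood model over all 12 libraries, and genes with a Benjamini-Hochberg adjusted p under 0.05 over all genes tested were called. With ovalbumin, I-BET151 lowered 17 of the 34 members (50%), whereas 14.2% of all genes tested were called lower, and it raised 1 member, Ifi35, where 17.1% of all genes were called higher. With immune complexes, it lowered 21 of 34 (61.8%; 15.8% of all genes) and raised 0, where 19% of all genes were called higher. At an unadjusted p under 0.05 the model still gave no member higher with immune complexes, and DESeq2 called 0 there as well. Other settings did call a member higher there. These were the fit with 1 surrogate variable and, for Herc6, the fit with mouse A of DMSO IC left out. The median log2 fold change of the members was -0.51 with ovalbumin and -0.69 with immune complexes, against 0.02 and -0.00 over all genes tested. In the ovalbumin arm, 20 members had all 3 iBET libraries below all 3 DMSO libraries, which 19.9% of all genes did. In the immune complex arm it was 21 members, and 22.3% of all genes. With mouse as a block, 20 members were called lower with ovalbumin (17.9% of all genes) and 23 with immune complexes (19.8% of all genes). With mouse A of DMSO Ova left out, 18 and 21 members were called lower, counts for which the share of all genes is not given here.

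**Figure D2:**
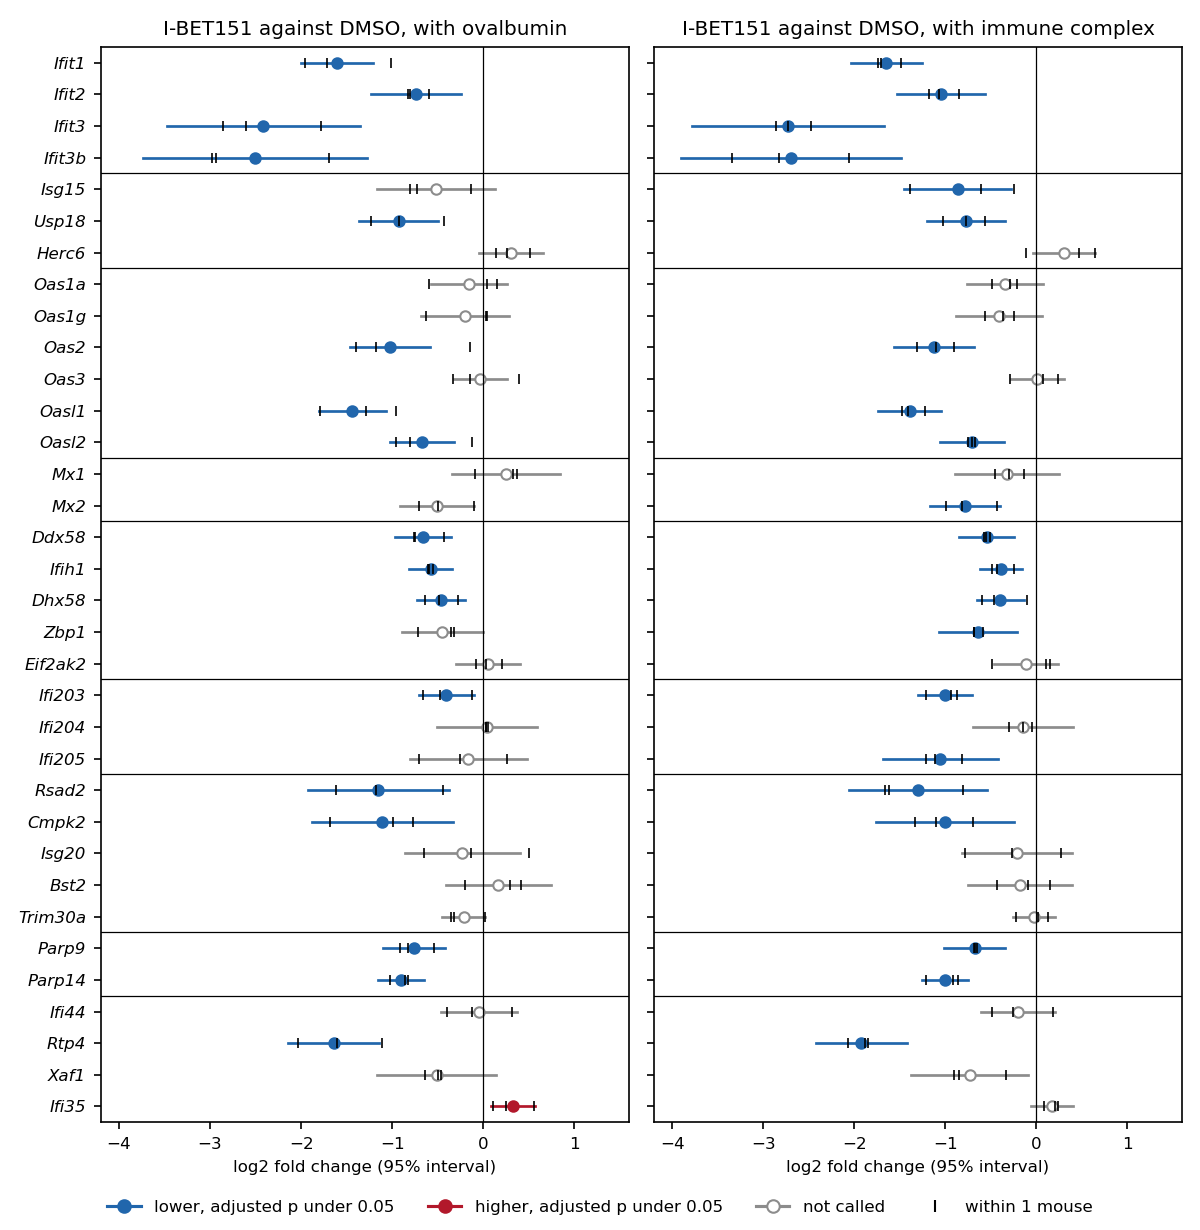
Log2 fold change of iBET against DMSO for each member, with ovalbumin and with immune complexes. Bars are 95% intervals, small ticks are the differences within each of the 3 mice, and blue, red and grey mark members called lower, called higher and not called. Ifit3, Ifit3b, Rtp4 and Ifit1 lie farthest to the left in both arms, and Ifi35 is the 1 red point.

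**Figure D3:**
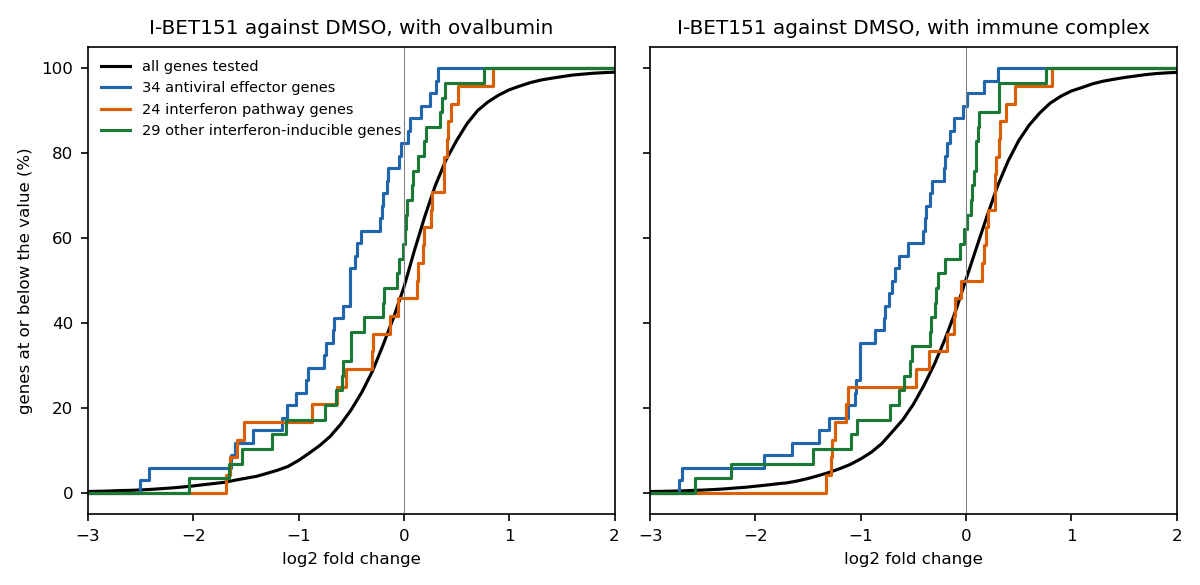
Cumulative share of genes by log2 fold change of iBET against DMSO in each arm, for all 11468 genes tested, the 34 members, 24 interferon pathway genes and 29 other interferon-inducible genes. The members' curve lies left of the all-gene curve, with medians of -0.51 and -0.69.

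In both arms 17 members (50%) were lower, where 11.6% of all genes were: Ifit1, Ifit2, Ifit3, Ifit3b, Usp18, Oas2, Oasl1, Oasl2, Ddx58, Ifih1, Dhx58, Ifi203, Rsad2, Cmpk2, Parp9, Parp14 and Rtp4. A further 4, Isg15, Mx2, Zbp1 and Ifi205, were called lower with immune complexes and not with ovalbumin. In neither arm were 12 members called: Herc6, Oas1a, Oas1g, Oas3, Mx1, Eif2ak2, Ifi204, Isg20, Bst2, Trim30a, Ifi44 and Xaf1. The remaining member, Ifi35, was higher with ovalbumin. These groups of members come from the fit without a mouse term, and some depend on it. With mouse as a block, Xaf1 was called lower in both arms and Oas1g with immune complexes. Mx2 and Zbp1 were then called lower with ovalbumin as well. Across the 34 members, the log2 fold changes in both arms had a Pearson correlation of 0.944, against 0.892 across all genes tested. The arms share no library but share the 3 mice, and genes are not independent replicates. The test of the difference between arms called 0 of the 34 members and 0% of all genes, with 1 member at an unadjusted p under 0.05, and DESeq2 called 0 members. The 4 members called with immune complexes alone are therefore not shown to differ between the arms.

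Promoter sequence was compared between these groups of members, since ISGF3 acts through a promoter element. RefSeq windows of 300 bases on GRCm38.p6, from 250 bases before to 50 bases after the start, were at hand for 24 of the 34 members. The core of the ISRE was searched as GAAANNGAAA on either strand, where the matches on the other strand read TTTCNNTTTC. It was found in 15 of these 24 members (62.5%) and in 3.99% of the 8616 tested genes with a window. Where it lay before the start, the nearest match ended 2 to 144 bases upstream, with a median of 70 bases over 12 windows. Of the members lower in both arms, 7 of 11 with a window held the core. Both Isg15 and Ifi205 held it, and so did 6 of the 11 members that were called lower in neither arm. These counts use the fit without a mouse term. Among those 11 are Oas1g, with the core, and Xaf1, without it, which were called lower with mouse as a block. A match is a description of these letters and not evidence of binding. The windows below are those of strongly lowered members (Ifit3, Ifit1, Rsad2, Oasl1), of the member called for the immune complex (Ifi203) and of abundant members that the drug did not move past the threshold (Oas1a, Oas3, Bst2). Capitals mark the core, and the Oasl1 window holds none. Ifi203 has a second window, chr1:173942623-173942922, not printed, which holds no core.
Ifit3 promoter window, chr19:34583279-34583578, plus strand: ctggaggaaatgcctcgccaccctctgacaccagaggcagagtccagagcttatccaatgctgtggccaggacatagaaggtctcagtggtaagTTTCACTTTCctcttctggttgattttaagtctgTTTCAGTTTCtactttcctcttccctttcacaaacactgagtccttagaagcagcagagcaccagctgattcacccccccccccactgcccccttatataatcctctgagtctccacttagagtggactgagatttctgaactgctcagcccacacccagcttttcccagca
Ifit1 promoter window, chr19:34640639-34640938, plus strand: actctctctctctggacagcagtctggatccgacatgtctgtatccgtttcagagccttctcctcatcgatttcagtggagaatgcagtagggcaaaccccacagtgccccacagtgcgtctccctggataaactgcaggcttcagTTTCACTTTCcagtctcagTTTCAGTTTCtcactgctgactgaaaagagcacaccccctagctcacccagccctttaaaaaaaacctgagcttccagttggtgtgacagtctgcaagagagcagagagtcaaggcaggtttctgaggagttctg
Rsad2 promoter window, chr12:26456403-26456702, minus strand: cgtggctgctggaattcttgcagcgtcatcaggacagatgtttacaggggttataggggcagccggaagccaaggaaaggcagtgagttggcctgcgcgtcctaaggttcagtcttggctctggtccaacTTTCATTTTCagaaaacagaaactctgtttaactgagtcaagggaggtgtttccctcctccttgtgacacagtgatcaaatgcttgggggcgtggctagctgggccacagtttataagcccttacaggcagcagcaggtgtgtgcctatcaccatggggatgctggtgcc
Oasl1 promoter window, chr5:114922990-114923289, plus strand: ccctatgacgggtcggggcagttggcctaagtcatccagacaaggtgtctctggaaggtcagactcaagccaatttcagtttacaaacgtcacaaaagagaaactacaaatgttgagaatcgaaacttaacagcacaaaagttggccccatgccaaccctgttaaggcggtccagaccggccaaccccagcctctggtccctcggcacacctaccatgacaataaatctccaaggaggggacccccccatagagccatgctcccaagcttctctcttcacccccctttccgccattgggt
Ifi203 promoter window, chr1:173942443-173942742, minus strand: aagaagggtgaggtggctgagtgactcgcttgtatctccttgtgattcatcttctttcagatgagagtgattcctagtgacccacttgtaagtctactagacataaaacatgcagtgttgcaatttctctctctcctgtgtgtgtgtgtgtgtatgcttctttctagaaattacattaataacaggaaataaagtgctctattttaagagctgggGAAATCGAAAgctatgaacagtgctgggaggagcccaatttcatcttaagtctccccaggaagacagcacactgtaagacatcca
Oas1a promoter window, chr5:120907476-120907775, minus strand: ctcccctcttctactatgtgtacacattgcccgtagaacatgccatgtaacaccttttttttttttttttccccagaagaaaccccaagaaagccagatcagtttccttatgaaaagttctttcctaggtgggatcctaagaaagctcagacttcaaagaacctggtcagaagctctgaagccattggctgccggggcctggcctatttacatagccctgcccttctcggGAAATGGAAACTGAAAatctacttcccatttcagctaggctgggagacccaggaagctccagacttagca
Oas3 promoter window, chr5:120777610-120777909, minus strand: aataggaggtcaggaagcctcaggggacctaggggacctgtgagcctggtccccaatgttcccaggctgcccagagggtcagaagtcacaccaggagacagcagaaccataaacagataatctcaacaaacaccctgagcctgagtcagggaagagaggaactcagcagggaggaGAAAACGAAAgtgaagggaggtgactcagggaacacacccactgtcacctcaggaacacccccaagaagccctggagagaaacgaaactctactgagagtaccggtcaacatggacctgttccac
Bst2 promoter window, chr8:71537423-71537722, minus strand: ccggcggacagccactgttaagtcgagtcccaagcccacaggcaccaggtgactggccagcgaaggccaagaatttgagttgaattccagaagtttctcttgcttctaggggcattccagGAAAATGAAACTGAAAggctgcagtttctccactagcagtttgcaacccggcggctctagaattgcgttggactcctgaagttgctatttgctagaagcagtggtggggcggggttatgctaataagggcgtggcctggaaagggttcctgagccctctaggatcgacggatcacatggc

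The 4 Ifit genes, which encode tetratricopeptide proteins that bind viral RNA ends, were lower in both arms (4 of 4 each), with a median log2 fold change of -2.01 with ovalbumin and -2.17 with immune complexes. They lie side by side on chromosome 19 (GRCm38, 34550694 to 34650009). Ifit3 stood at 147, 77.98 and 79.00 CPM in the DMSO Ova libraries of mice A, B and C and at 20.1, 22.5 and 12.9 CPM in the iBET Ova libraries. With immune complexes it stood at 180.0, 62.8 and 71.6 CPM with DMSO and 24.6, 11.1 and 10.7 CPM with iBET. Mouse A was highest with DMSO in both arms, and no iBET library reached any DMSO library. The log2 fold change of Ifit3 was -2.42 (SE 0.48, adjusted p = 0.00308) with ovalbumin and -2.73 (SE 0.48, adjusted p = 0.00125) with immune complexes. Its neighbour Ifit3b, a close copy, went from 97.1, 46.00 and 53.7 CPM with DMSO to 12.5, 14.1 and 6.66 CPM with iBET in the ovalbumin libraries. In the immune complex libraries it went from 113, 38.2 and 41.8 to 15.9, 9.01 and 3.96 CPM, again without overlap. Its log2 fold changes were -2.51 (SE 0.56, adjusted p = 0.00596) and -2.69 (SE 0.55, adjusted p = 0.00312). Of the 100-base stretches in Ifit3 transcripts, 31.7% also occur in Ifit3b, so how counts are split between them is uncertain.

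Ifit1, which recognises RNA without the host's cap methylation, had the smallest standard error of the family. It stood at 49.8, 70.1 and 80.2 CPM in DMSO Ova and 24.6, 17.9 and 24.4 CPM in iBET Ova, and at 74.9, 71.2 and 81.2 CPM in DMSO IC and 22.7, 21.1 and 28.8 CPM in iBET IC. Every iBET library was below every DMSO library, mouse A included, where Ifit1 was lowest rather than highest among the DMSO Ova libraries. Its log2 fold changes were -1.60 (SE 0.18, adjusted p = 4.55e-05) and -1.65 (SE 0.18, adjusted p = 2.88e-05). The change of Ifit2, which blocks translation initiation, was -0.74 (SE 0.23, adjusted p = 0.0261) with ovalbumin and -1.05 (SE 0.22, adjusted p = 0.00346) with immune complexes. The Ifit2 call with ovalbumin was kept in 8 of 12 fits with 1 library left out (adjusted p up to 0.0943, with mouse B of iBET Ova left out).

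**Figure D4:**
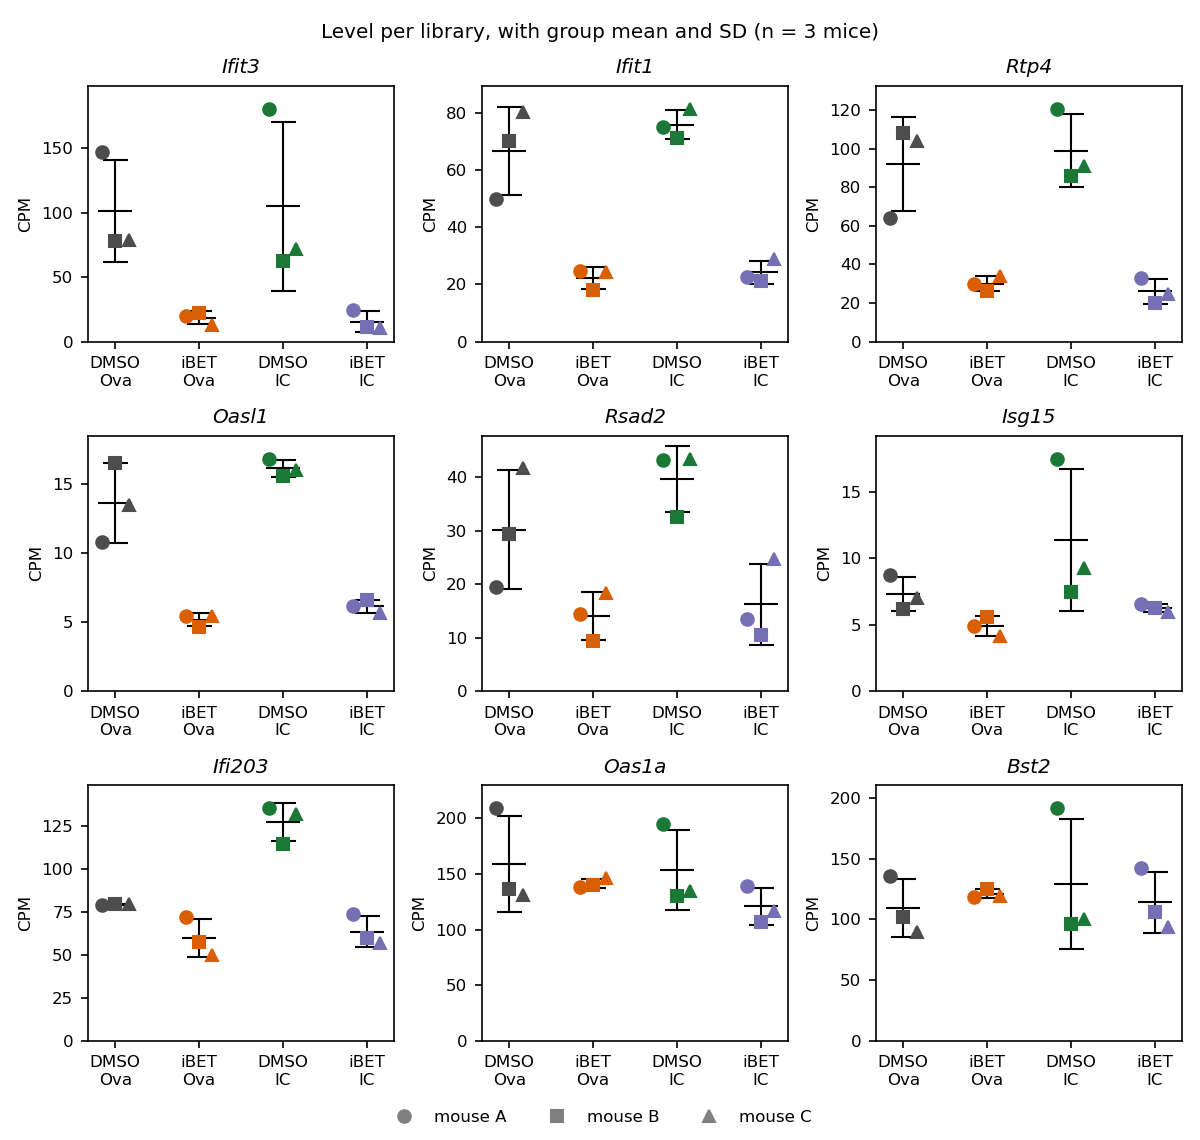
Level in CPM of Ifit3, Ifit1, Rtp4, Oasl1, Rsad2, Isg15, Ifi203, Oas1a and Bst2 in each of the 12 libraries, by group. Marker shapes are mice A, B and C, and bars are the mean ± SD of 3 libraries. For Ifit1, Rtp4 and Oasl1 the iBET points lie below every DMSO point, while those of Oas1a and Bst2 overlap.

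Isg15, which is conjugated to proteins during viral infection, had at most 17.5 CPM in any library. It stood at 8.73, 6.21 and 7.05 CPM in DMSO Ova, 4.94, 5.62 and 4.17 CPM in iBET Ova, 17.5, 7.48 and 9.25 CPM in DMSO IC and 6.56, 6.30 and 5.99 CPM in iBET IC. The highest value was the DMSO IC library of mouse A, and the drug groups lay below their DMSO groups without overlap in both arms. With immune complexes its log2 fold change was -0.86 (SE 0.27, adjusted p = 0.0264), and with ovalbumin -0.51 (SE 0.30, adjusted p = 0.214). The call with immune complexes was kept in 8 of 12 fits with 1 library left out (adjusted p up to 0.114, with mouse A of DMSO IC left out). Usp18, the protease that removes Isg15 and restrains Ifnar2, fell in both arms, with changes of -0.93 (SE 0.20, adjusted p = 0.00378) and -0.77 (SE 0.20, adjusted p = 0.00892). Herc6, the ligase that attaches Isg15 in mice, had the highest mean CPM of the 3. It stood at 37.5, 33.3 and 39.8 CPM in DMSO Ova and 44.99, 47.5 and 43.8 CPM in iBET Ova, then 47.7, 30.3 and 32.98 CPM in DMSO IC and 44.1, 41.96 and 51.7 CPM in iBET IC. Herc6 was thus the 1 member of the Isg15 system with both estimates above 0, at 0.30 and 0.31 (adjusted p = 0.173 and 0.151), and neither passed the threshold. With mouse A of DMSO IC left out, Herc6 was called higher with immune complexes (adjusted p = 0.00927). Its exons overlap Gm45193 on the same strand over 13.7% of their length, so its counts are uncertain.

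The OAS family split evenly, with 3 of 6 lower in each arm. Its members sit at 2 places on chromosome 5, Oasl2 and Oasl1 at 114896936 to 114937915 and Oas2, Oas3, Oas1g and Oas1a at 120730333 to 120907521 (GRCm38). Oasl1, an OAS-like protein without synthetase activity that holds back translation of Irf7, stood at 10.8, 16.6 and 13.5 CPM in DMSO Ova and 5.48, 4.63 and 5.42 CPM in iBET Ova. It stood at 16.8, 15.6 and 16.01 CPM in DMSO IC and 6.19, 6.59 and 5.63 CPM in iBET IC, with no overlap in either arm. Its log2 fold changes were -1.44 (SE 0.17, adjusted p = 5.73e-05) and -1.39 (SE 0.16, adjusted p = 4.56e-05). Oas2, a synthetase, changed by -1.02 (SE 0.20, adjusted p = 0.00239) and -1.12 (SE 0.20, adjusted p = 0.00104), and Oasl2, a second OAS-like protein, changed by -0.67 (SE 0.16, adjusted p = 0.00718) and -0.71 (SE 0.16, adjusted p = 0.00461). Oas1a, the most abundant of the family, stood at 209, 136 and 132 CPM in DMSO Ova, 138, 140.1 and 146 CPM in iBET Ova, 195, 130.3 and 135 CPM in DMSO IC and 139, 107 and 117 CPM in iBET IC. Its groups overlapped in both arms, and its fold change with immune complexes was -0.34 (SE 0.19, adjusted p = 0.185). Oas1g, which shares 31.2% of its 100-base stretches with Oas1a, was at -0.41 (SE 0.22, adjusted p = 0.167) there and was called with mouse as a block (adjusted p = 0.0269). Of the 100-base stretches of Oas1a, 40.9% also occur in Oas1g, so how counts are split between them is uncertain. Oas3, the large synthetase with 3 repeated domains, gave -0.03 (SE 0.14, adjusted p = 0.895) and 0.01 (SE 0.13, adjusted p = 0.961), with 95% intervals of -0.32 to 0.26 and -0.28 to 0.30. In one gene cluster, Oas2 was therefore lower while Oas3 had intervals on both sides of 0.

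Of the Mx genes, dynamin-like GTPases that lie together on chromosome 16 (97447035 to 97560900), Mx2 was lower with immune complexes. In C57BL/6 mice the Mx1 gene carries a deletion and yields no working protein, and the GENCODE annotation lists Mx2 as a polymorphic pseudogene. Mx1 stood at 31.3, 28.5 and 26.7 CPM in DMSO Ova, 40.7, 35.8 and 25.2 CPM in iBET Ova, 54.4, 27.6 and 32.4 CPM in DMSO IC and 39.7, 25.1 and 26.4 CPM in iBET IC. Mouse A gave its highest value in every group, the groups overlapped, and its log2 fold changes were 0.25 (SE 0.27, adjusted p = 0.523) and -0.32 (SE 0.26, adjusted p = 0.37). Mx2 was at -0.51 (SE 0.19, adjusted p = 0.0544) with ovalbumin, where the block by mouse called it (adjusted p = 0.0461), and at -0.78 (SE 0.18, adjusted p = 0.00474) with immune complexes.

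Among the nucleic acid sensors, all 3 RIG-I-like receptors were lower in both arms while Eif2ak2 was not called in either. Ddx58 encodes RIG-I, which detects short RNA with a 5′ triphosphate, and it changed by -0.66 (SE 0.14, adjusted p = 0.00365) and -0.55 (SE 0.14, adjusted p = 0.00917). Ifih1 encodes MDA5, which detects long double-stranded RNA, and it stood at 64.2, 54.8 and 57.4 CPM in DMSO Ova and 42.4, 37.5 and 37.6 CPM in iBET Ova, then 49.7, 46.1 and 48.1 CPM in DMSO IC and 36.9, 32.9 and 40.6 CPM in iBET IC. Its groups did not overlap, and the log2 fold changes were -0.58 (SE 0.11, adjusted p = 0.00158) and -0.38 (SE 0.11, adjusted p = 0.0143). Dhx58 encodes LGP2, the receptor without signalling domains that modulates the other pair. It stood at 51.4, 54.6 and 47.8 CPM in DMSO Ova and 42.3, 34.96 and 34.1 CPM in iBET Ova, then 39.5, 45.4 and 49.6 CPM in DMSO IC and 36.7, 32.8 and 32.6 CPM in iBET IC, without overlap in either arm, with changes of -0.46 (SE 0.12, adjusted p = 0.0123) and -0.39 (SE 0.12, adjusted p = 0.0228). The Dhx58 call was kept in 10 of 12 fits with 1 library left out (adjusted p up to 0.0557, with mouse B of DMSO Ova left out) with ovalbumin. With immune complexes it was kept in 8 of 12 fits with 1 library left out (adjusted p up to 0.0889, with mouse C of DMSO IC left out), and that of Ifih1 in 11 of 12 fits with 1 library left out (adjusted p up to 0.0694, with mouse B of iBET IC left out). These were the smallest of the called reductions with immune complexes, together with Ddx58. Zbp1, a sensor of left-handed nucleic acid that can start necroptosis, was at -0.45 (SE 0.20, adjusted p = 0.115) with ovalbumin, called with the block by mouse (adjusted p = 0.0101), and at -0.64 (SE 0.20, adjusted p = 0.0247) with immune complexes, a call kept in 9 of 12 fits with 1 library left out (adjusted p up to 0.0989, with mouse B of iBET IC left out). Eif2ak2 encodes PKR, the kinase that halts translation, and stood at 155, 146 and 144 CPM in DMSO Ova, 147, 148 and 166 CPM in iBET Ova, 194, 113 and 134 CPM in DMSO IC and 138, 125 and 144 CPM in iBET IC. Its groups overlapped, at 0.05 (SE 0.16, adjusted p = 0.829) and -0.11 (SE 0.16, adjusted p = 0.614), with 95% intervals of -0.30 to 0.40 and -0.46 to 0.23.

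The PYHIN genes, whose proteins bind DNA and modulate transcription or inflammasomes, lie on chromosome 1 (173747293 to 174031810). Ifi204 was the most abundant member in CPM, at 451, 379 and 296 in DMSO Ova, 468, 387 and 301 in iBET Ova, 499, 383 and 309.8 in DMSO IC and 482, 311 and 280.3 in iBET IC. Mouse A was highest and mouse C lowest in every group, and the spread between mice was larger than any difference between groups, with changes of 0.04 (SE 0.25, adjusted p = 0.918) and -0.15 (SE 0.25, adjusted p = 0.676). Ifi203 stood at 78.6, 79.4 and 79.3 CPM in DMSO Ova, 71.9, 57.3 and 49.98 CPM in iBET Ova, 135, 115 and 132 CPM in DMSO IC and 73.4, 59.6 and 56.6 CPM in iBET IC. The DMSO IC libraries were above all others, and the iBET libraries of the 2 arms overlapped. I-BET151 changed it by -0.40 (SE 0.14, adjusted p = 0.0445) with ovalbumin, kept in 5 of 12 fits with 1 library left out (adjusted p up to 0.161, with mouse C of iBET Ova left out), and by -1.004 (SE 0.14, adjusted p = 1.58e-04) with immune complexes. Ifi205 gave -0.16 (SE 0.29, adjusted p = 0.713) with ovalbumin and -1.06 (SE 0.29, adjusted p = 0.0148) with immune complexes, where the call was kept in 9 of 12 fits with 1 library left out (adjusted p up to 0.0576, with mouse A of DMSO IC left out). Of the 100-base stretches of Ifi205, 15.0% occur in another gene, so its value is uncertain.

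Of the 5 restriction factors and antiviral enzymes, Rsad2 and Cmpk2 were lower in both arms. They are neighbours on chromosome 12 (26442746 to 26479837): Rsad2 encodes viperin, which converts CTP to a chain terminator of viral polymerases, and Cmpk2 encodes a nucleotide kinase that supplies the precursor. Rsad2 stood at 19.5, 29.4 and 41.7 CPM in DMSO Ova, 14.4, 9.48 and 18.4 CPM in iBET Ova, 43.2, 32.6 and 43.5 CPM in DMSO IC and 13.6, 10.5 and 24.8 CPM in iBET IC. No iBET library reached a DMSO library of the same arm, and mouse C was highest in each group. Its changes were -1.15 (SE 0.35, adjusted p = 0.0281) and -1.30 (SE 0.34, adjusted p = 0.0129), and those of Cmpk2 were -1.11 (SE 0.35, adjusted p = 0.0329) and -1.01 (SE 0.35, adjusted p = 0.0411). With ovalbumin, the Rsad2 call was kept in 8 of 12 fits with 1 library left out (adjusted p up to 0.121, with mouse C of DMSO Ova left out), and with immune complexes in 11 of 12 fits with 1 library left out (adjusted p up to 0.0558, with mouse A of iBET IC left out). The Cmpk2 calls were kept in 8 of 12 fits with 1 library left out (adjusted p up to 0.115, with mouse C of DMSO Ova left out) with ovalbumin, and in 6 of 12 fits with 1 library left out (adjusted p up to 0.139, with mouse B of iBET IC left out) with immune complexes. Bst2 stood at 136, 102 and 89.4 CPM in DMSO Ova, 119, 125 and 119 CPM in iBET Ova, 191, 96.1 and 100.0 CPM in DMSO IC and 142, 106 and 93.7 CPM in iBET IC. Its groups overlapped, at 0.17 (SE 0.26, adjusted p = 0.671) and -0.18 (SE 0.26, adjusted p = 0.628). Isg20, an exonuclease of single-stranded RNA, and Trim30a, a ubiquitin ligase that dampens Toll-like receptor signalling, were not called either, with Isg20 at -0.23 and -0.21 and Trim30a at -0.21 and -0.02.

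The ADP-ribosyltransferase genes Parp9 and Parp14, close to each other on chromosome 16 (35832874 to 35972605), were called lower in both arms in each of 24 alternative analyses. Parp14, which modulates Stat signalling, stood at 258, 216 and 247 CPM in DMSO Ova, 127, 122 and 136 CPM in iBET Ova, 308, 235 and 249 CPM in DMSO IC and 133, 124 and 138 CPM in iBET IC. The spread within each group was small beside the gap between them. Its log2 fold changes were -0.91 (SE 0.12, adjusted p = 1.13e-04) and -1.01 (SE 0.12, adjusted p = 4.60e-05), among the smallest p-values of the members. Parp9, which acts with the ligase Dtx3l, changed by -0.76 (SE 0.16, adjusted p = 0.0029) and -0.68 (SE 0.15, adjusted p = 0.0048). Its exons overlap Dtx3l on the opposite strand over 9.40% of their length.

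Of the 4 other effectors, Rtp4 was among the most strongly lowered members and Ifi35 was the 1 member raised. Rtp4, a zinc finger protein that restricts flaviviruses and was first known as a chaperone of receptors, stood at 64.2, 108 and 104 CPM in DMSO Ova, 29.7, 26.1 and 33.8 CPM in iBET Ova, 120.3, 85.7 and 90.7 CPM in DMSO IC and 33.2, 20.3 and 24.4 CPM in iBET IC. No drug library reached a DMSO library, and the changes were -1.64 (SE 0.23, adjusted p = 2.36e-04) and -1.92 (SE 0.23, adjusted p = 6.78e-05). Ifi35, a partner of Nmi, stood at 32.9, 29.4 and 28.6 CPM in DMSO Ova, 35.5, 35.2 and 42.3 CPM in iBET Ova, 30.5, 27.2 and 28.8 CPM in DMSO IC and 32.3, 31.3 and 33.9 CPM in iBET IC. The iBET libraries lay above the DMSO libraries of their arm, by 0.33 (SE 0.11, adjusted p = 0.0405) with ovalbumin and 0.17 (SE 0.11, adjusted p = 0.239) with immune complexes. The call with ovalbumin was kept in 1 of 12 fits with 1 library left out (adjusted p up to 0.15, with mouse C of iBET Ova left out). The exons of Ifi35 overlap Gm11626 on the opposite strand over 16.8% of their length, and those of Rtp4 overlap Gm45338 on the same strand over 13.9%, so both counts are uncertain. Ifi44 had -0.04 and -0.20. Xaf1, which promotes apoptosis by antagonising XIAP, had -0.51 and -0.73 (adjusted p = 0.221 and 0.0751) and was called lower in both arms with mouse as a block (adjusted p = 0.0131 and 0.00285).

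The comparison of immune complexes with ovalbumin asks whether Fcγ receptor engagement alone moved these genes. With DMSO, 1 of 34 members was called, against 1.22% of all genes in either direction, and the members' median log2 fold change was 0.05. The called member was Ifi203, which was higher by 0.68 (SE 0.14, adjusted p = 0.035) and higher in 3 of 3 mice. The values given above show its DMSO IC libraries above its DMSO Ova libraries without overlap. The call was kept in 3 of 12 fits with 1 library left out (adjusted p up to 0.164, with mouse B of DMSO Ova left out). With mouse A of DMSO Ova left out the adjusted p was 0.0665. Leaving out all libraries of mouse A, B or C gave adjusted p-values of 0.0100, 0.675 and 0.313. With mouse as a block, 2 members were called, where 2.75% of all genes were, Ifi203 (adjusted p = 0.00732) and Ifi205 (adjusted p = 0.0374). Ifi205 stood at 69.3, 74.6 and 62.9 CPM in DMSO Ova and 172, 110.4 and 100.3 CPM in DMSO IC, also without overlap, with a log2 fold change of 0.89 (SE 0.29, adjusted p = 0.213) without the block. Next by p-value came Ifih1, which was lower with immune complexes in every mouse at -0.28 (adjusted p = 0.295), a difference that was not called. Isg15 was at 0.71 (adjusted p = 0.338), with its DMSO IC library of mouse A at 17.5 CPM and those of the other mice at 7.48 and 9.25 CPM. The 4 Ifit genes lay between 0.02 and 0.16 on the log2 scale, with no adjusted p below 0.841.

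With I-BET151 present, immune complexes changed 0 of the 34 members, against 0.349% of all genes. In edgeR 0 members had an unadjusted p under 0.05, and DESeq2 called 0. The smallest p-values belonged to Ifi35 at -0.21, Oasl1 at 0.25 and Isg15 at 0.36 (adjusted p = 0.711, 0.82 and 0.85). In the test of whether the drug effect differed between arms, Ifi203 had the smallest p-value among the members, with a difference of -0.60 (95% interval -1.03 to -0.18, unadjusted p = 0.0094). Its adjusted p over all genes was 1.000 in edgeR, so no difference between the arms was detected.

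The mice differed in these genes beyond the drug and the stimulus. Mouse A had the highest level for 14 of 34 members in DMSO Ova (41.2%, against 40.6% of all genes tested), 19 in iBET Ova (55.9% against 35.4%), 23 in DMSO IC (67.6% against 39.4%) and 20 in iBET IC (58.8% against 33.6%). Mx1, Zbp1, Ifi204 and Xaf1 were highest in mouse A in all 4 groups (11.8% of members, against 3.51% of all genes tested). Usp18, Ddx58, Rsad2 and Cmpk2 were highest in mouse A in none. Ifit3b in mouse A lay 0.96 (DMSO Ova) and 1.498 (DMSO IC) above the mean of mice B and C on the log2 scale, while Trim30a lay at -0.09 and -0.08. Other members lay below that mean in DMSO Ova, among them Oas2 at -0.89 and Rsad2 at -0.84. The median over the members was -0.003 in DMSO Ova and 0.34 in DMSO IC. Left without the libraries of mouse A, 19 members were called lower in each arm, where 15.8% (ovalbumin) and 15.6% (immune complexes) of all genes were. Without mouse B the counts were 7 with ovalbumin (5.18% of all genes) and 11 with immune complexes (6.97%), and without mouse C 12 (8.34%) and 14 (9.82%). Fewer genes were thus called lower among all genes as well when mouse B or C was left out. Without any 1 library, 12 to 20 were called lower with ovalbumin and 15 to 21 with immune complexes. With mouse A of DMSO Ova left out and mouse as a block, 21 and 24 were. For these fits without 1 library the shares of all genes are not given here, so the counts cannot be set against them.

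**Figure D5:**
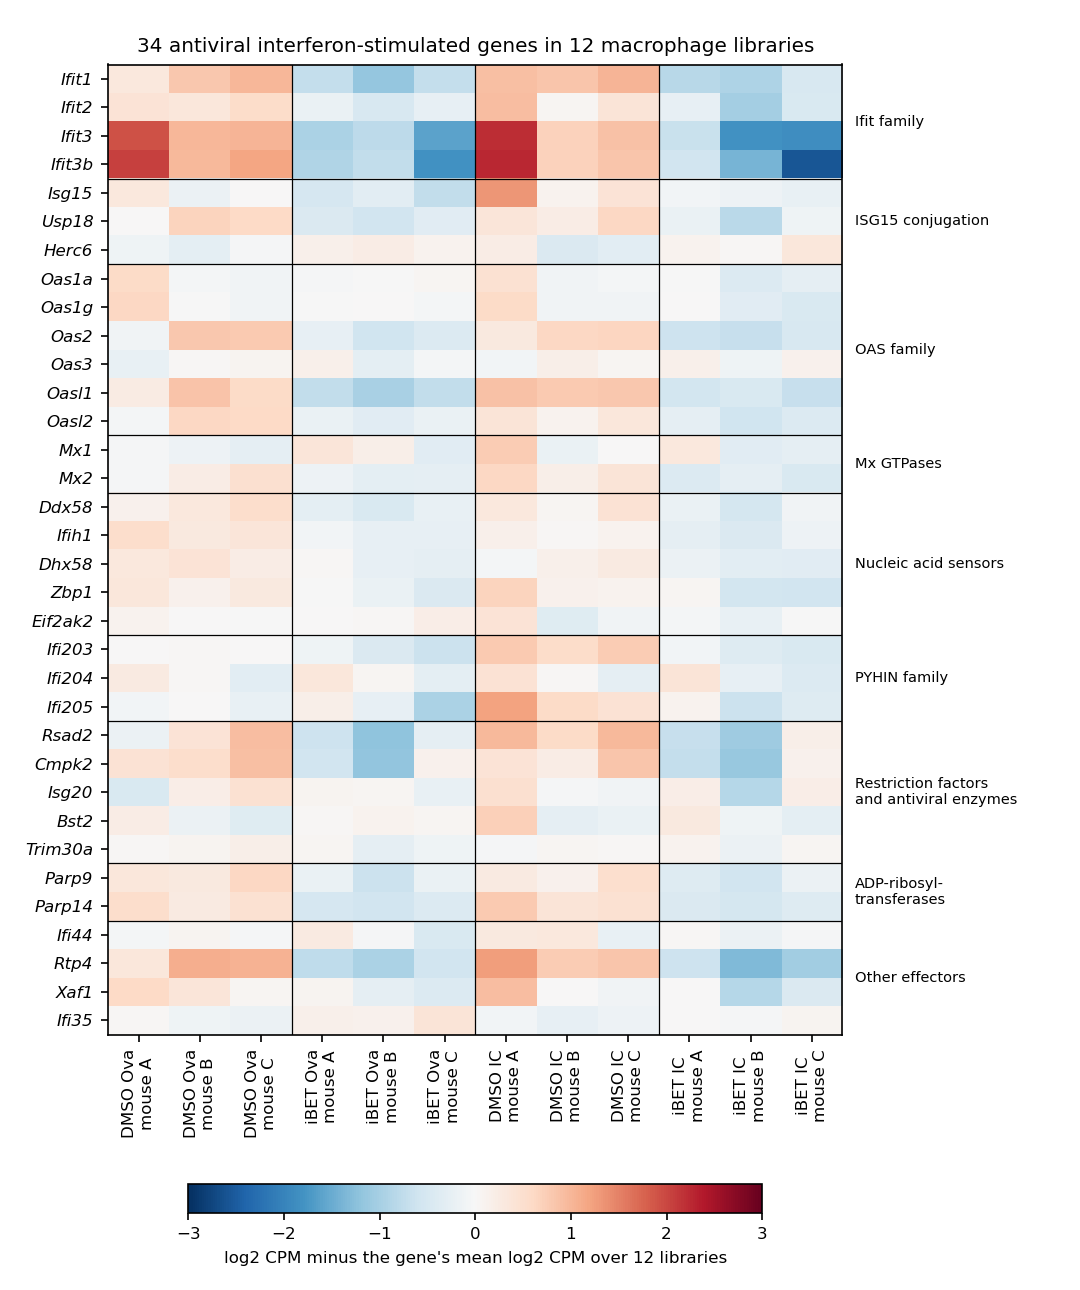
Heat map of the 34 members, ordered by role, in the 12 libraries, as log2 CPM minus the member's mean over all libraries, on a colour scale from -3 to 3. The Ifit genes and Rtp4 change colour between the DMSO and iBET columns, while Ifi204 and Bst2 change more between mice than between groups.

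Of 24 tested genes of the interferon pathway, among them receptor chains, kinases, transcription factors and upstream sensors, 4 were higher (17.1% of all genes) and 7 lower (14.2% of all genes) with I-BET151 in the ovalbumin arm, with a median log2 fold change of 0.13. In the immune complex arm 4 were higher (19% of all genes) and 8 lower (15.8% of all genes), with a median of 0.05. The 4 of 24 called higher (16.7%) are thus close to the share of all genes. The 7 and 8 of 24 called lower (29.2% and 33.3%) are above the shares of all genes. Stat2, a subunit of ISGF3, stood at 64.2, 65.6 and 66.7 CPM in DMSO Ova and 123, 113 and 118 CPM in iBET Ova, and rose by 0.85 (SE 0.09, adjusted p = 2.24e-05) and, with immune complexes, by 0.82 (SE 0.09, adjusted p = 2.33e-05). Irf9, its DNA-binding partner, stood at 74.99, 80.1 and 88.2 CPM in DMSO Ova and 60.6, 53.9 and 52.2 CPM in iBET Ova, and changed by -0.55 (SE 0.10, adjusted p = 0.00119) and -0.47 (SE 0.10, adjusted p = 0.00251). Stat2 and Irf9 thus moved in opposite directions in both arms. Next to Stat2, the called genes raised most with ovalbumin were Irf8, a myeloid transcription factor, and the kinase Jak1 (0.42 and 0.41). Some genes that were not called in this fit had larger estimates than Irf8 and Jak1 there. With immune complexes, the called genes raised most after Stat2 were the phosphatase Ptpn11 and Jak1 (0.47 and 0.37). The genes lowered most with ovalbumin were the endosomal receptors Tlr9, Tlr3 and Tlr7 (-1.69, -1.65 and -1.58). With immune complexes they were Tmem173, which encodes STING, Tlr9 and Tlr3 (-1.33, -1.28 and -1.27). Ikbke, a kinase that activates Irf3, was the 1 pathway gene called for the immune complex with DMSO, at 0.83 (SE 0.12, adjusted p = 0.00583). Ifnb1 had 0 counts in all 12 libraries, which allows up to 1.54 CPM in mouse A of DMSO Ova and up to 0.36 CPM in the others by counting error at 3 counts.

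Outside the 34, a further 29 interferon-inducible genes were tested. With ovalbumin 9 were lower (14.2% of all genes) and 3 higher (17.1% of all genes), with a median of -0.07. With immune complexes 8 were lower (15.8% of all genes) and 1 higher (19% of all genes), with a median of -0.26. The most lowered were Slfn8, Nmi and Samd9l with ovalbumin (-2.04, -1.66 and -1.53), and Nmi, Slfn8 and Samd9l with immune complexes (-2.58, -2.23 and -1.45). Trafd1, a feedback inhibitor of innate signalling, was higher in both arms, at 0.76 and 0.76. Lgals3bp and Trim25, the ligase that activates RIG-I, were higher with ovalbumin (0.36 and 0.34). None of the 29 was called for the immune complex in edgeR, with or without drug, where 3 had an unadjusted p under 0.05 with DMSO and 2 with iBET.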

How the data were processed

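The authors deposited counts per gene symbol. Per the labels and the study's methods, reads of stranded total RNA libraries were trimmed with Trim Galore, aligned to mm10 with HISAT2 and counted with featureCounts. Annotation, strand setting and handling of multimapping reads are not given in the sources used here. A second deposited table of normalized values was not used. The members, the lists and the rule for the values shown in full (per role, the member with the highest mean CPM; per drug comparison, the 3 called members lowest and the 3 highest by log2 fold change; per immune complex comparison, the called members or the 3 smallest p-values) were chosen with earlier results of these data known.

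Counts were analysed with edgeR 4.0.16 in R 4.3.3 (filterByExpr with a minimum count of 10, TMM, robust quasi-likelihood test, 1 term per group, all 12 libraries). Benjamini-Hochberg adjustment ran over the 11468 genes tested. SE is the log2 fold change divided by the root of F. Libraries of a mouse share a donor per the labels, which pairs them. Over 18 same-mouse pairs, deviations from group means correlated at -0.07 to 0.54 (median 0.26, 12 above 0.1). Over 36 pairs of different mice in different groups, they correlated at -0.50 to 0.27 (median -0.13, 6 above 0.1). Replicates are separate mice. Within a group, any pair of libraries had different counts for at least 98.1% of tested genes. On simulated counts the test was checked for recovery of known changes. The simulated libraries held no mouse effect, so that check does not cover the pairing. Alternatives were DESeq2 1.42.0 and its size factors, other filters, 1 surrogate variable (sva 3.50.0), a block by mouse, the compared groups alone, counts without Rn45s, and each library or mouse left out. Leaving out mouse A of DMSO Ova together with the block was added after seeing the data. Positions are from GENCODE vM21 (GRCm38) and promoter windows from RefSeq (GRCm38.p6). No window was used for Usp18, Oas2, Mx1, Mx2, Dhx58, Zbp1, Ifi204, Parp9, Parp14 and Rtp4. The values of 1 gene on the interferon pathway list are not reported here.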

Additional observations from a re-analysis of the deposited data

How the results depend on the processing

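No member called in a drug comparison changed sign in any of the 24 alternatives. In all 24, Ifit1, Ifit3, Oasl1, Ifih1, Parp9, Parp14 and Rtp4 were called lower with ovalbumin (7 members), and 10 members were with immune complexes. The share of all genes called in all 24 is not given here. The number called lower with I-BET151 was 17 with ovalbumin and ranged from 7 (without mouse B) to 20 when libraries or mice were left out. With immune complexes it was 21 and ranged from 11 (without mouse B) to 21. Leaving out a mouse removes 4 of the 12 libraries. The 1 member called higher with ovalbumin, Ifi35, gave a count of 0 under DESeq2 size factors in edgeR, DESeq2, no filter, at least 10 counts in every library, the compared groups alone, no Rn45s, and the block with mouse A of DMSO Ova left out, and 0 to 2 when libraries or mice were left out. With immune complexes the count called higher was 0, but 1 with 1 surrogate variable, and 0 to 1 when libraries or mice were left out. The 1 member called for the immune complex with DMSO (Ifi203) became 2 with the replicate block and 0 with the compared groups alone, and 0 to 1 when libraries or mice were left out. The cause of these changes was not tested. Blocking by mouse raised the lower calls to 20 with ovalbumin and 23 with immune complexes. DESeq2 size factors moved the median of all genes by -0.04 and -0.03. Under the filter of at least 10 counts in every library 33 members were tested, without Isg20. The difference between arms could not be fitted on the compared groups alone. Depth limits mouse A of DMSO Ova most.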
